A study of Drosophila melanogaster with 24 samples.

Results

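Genes for the proteins of the cytosolic ribosome were followed in single heads of male Drosophila melanogaster that had, or had not, been trained to suppress courtship. A gene was a member if its FlyBase symbol began with RpL (large subunit) or RpS (small subunit) followed by a further letter or digit. Genes of the mitochondrial ribosome (mRpL and mRpS) were kept apart. The rule used names only and no measured value. It took 87 of the 17559 genes in the table, of which 35 had small-subunit symbols, 47 large-subunit symbols and 5 symbols ending in -like. A further 5 symbols of the rule (RpL19, RpL27A, RpL31, RpS10b and RpS12) were not matched to the table and were not analysed here.

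The flies fell into 4 groups of 6. In 1X trained flies a virgin male had spent 1 session with an unreceptive mated female, and 1X mock males had gone through that handling with no female present. In 3X trained flies there were 3 such sessions with pauses between them, and 3X mock males were handled over the same longer schedule without a female. Every head was taken 1 h after the end of the treatment, and every library came from 1 head of 1 fly. The study's methods have the males housed singly for 5 days before training at 25 °C in a 12:12 light cycle. The strain of the sequenced males was not given in the sources used here. Because 3X flies differ from 1X flies in both the number of sessions and the length of handling, trained flies were compared with the mock flies of their own schedule.

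A ribosome is built of a small subunit, which reads the messenger RNA, and a large subunit, which joins the amino acids. Each subunit is ribosomal RNA folded with many small, mostly basic proteins, and nearly every one of these proteins is needed in 1 copy per ribosome. In flies, loss of 1 copy of many of these genes gives the classical Minute phenotype of slow development and short, thin bristles. Messenger RNAs for ribosomal proteins are among the most abundant of most cells, and their translation is regulated through the target of rapamycin pathway. Training of this kind is used to study long-term memory, which needs protein synthesis.

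The values were RPKM, reads scaled by gene length and by library size, which set genes of different length on one scale. The authors' library sizes, recovered from the RPKM values, were 18311329 to 40727606 reads, with a median of 35004697. Read numbers cover counting error only. Log2 values of flies of the same group correlated at 0.969 to 0.993 (Pearson), and no 2 columns were identical. The head markers were present in every fly: the neuronal gene nSyb had 190 to 235 RPKM, the glial gene repo 11.9 to 16.5 RPKM and the photoreceptor opsin ninaE 11358 to 14688 RPKM. The library of 3X mock 6 stood apart. The summed RPKM of 16 testis genes was 121 in the head 3X mock 6 and at most 1.53 in any other fly, with 14 of the 16 genes highest in that head. For the set of members as a whole, median changes that use the 3X mock group are therefore also given without 3X mock 6. Tests are from limma with Benjamini-Hochberg adjustment over the 10547 genes that had at least 1 RPKM in at least 6 flies. A gene was called at an adjusted p under 0.05, and changes are differences on the log2(RPKM + 1) scale.

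Ribosomal protein genes were abundant in the head. Of the 87 members, 80 passed the filter on low values: 32 of the small subunit, 45 of the large subunit and 3 -like genes. Their median level was 188 RPKM, against 12.0 RPKM over all tested genes. The 28 members between 200 and 400 RPKM and the 31 between 100 and 200 RPKM made up most of the set, and 7 exceeded 400 RPKM. The median was 206 RPKM for the large subunit and 169 RPKM for the small subunit. RpS25, a protein of the small subunit, was highest at 649.9 RPKM and ranged from 592 to 778 RPKM over the 24 flies. RpL40 followed at 489 RPKM. It is made as a fusion with ubiquitin, as is RpS27A of the small subunit, which had 405 RPKM. The small-subunit protein RpS3A had 439 RPKM, and the large-subunit protein RpL39 had 421 RPKM. The proteins of the large-subunit stalk, which recruits the factors that drive elongation, lay at 389 RPKM (RpLP1), 288 RPKM (RpLP2) and 236 RPKM (RpLP0). RpL32, a customary reference transcript for quantitative PCR in flies, had 141 RPKM.

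**Figure D1:**
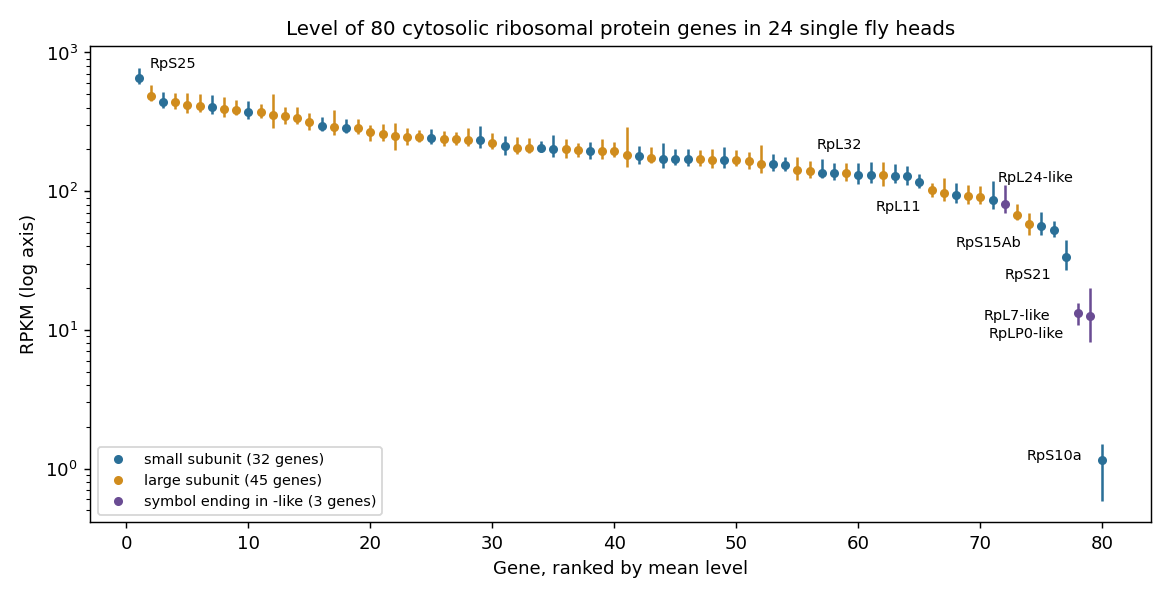
RPKM (log axis) of the 80 ribosomal protein genes that passed the filter, ranked by mean level over 24 flies; points are means, vertical lines run from the lowest to the highest fly, and colours give the subunit. Most genes lie on a slow slope between 100 and 400 RPKM, with RpS25 at the top and RpS21, RpL7-like, RpLP0-like and RpS10a falling away at the low end.

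The lowest of the 80 were set apart from the slope. RpS10a and RpS21 are named here after their levels were seen. RpS10a, whose partner copy RpS10b was not matched, had a mean of 1.16 RPKM. The small-subunit gene RpS21 had 33.5 RPKM. The 3 -like genes that passed the filter had 80.9 RPKM (RpL24-like), 13.2 RPKM (RpL7-like) and 12.6 RPKM (RpLP0-like). These 3 are the fly counterparts of yeast Rlp24, Rlp7 and Mrt4, which in yeast help to assemble the large subunit in the nucleus and are not parts of the finished ribosome. Their namesakes RpL24, RpL7 and RpLP0 had 158, 193 and 236 RPKM. RpL7-like shared 1771 of its 1793 exonic bases with CG34164, and the rows of the 2 genes held the same reads in 24 of 24 flies, so that its values cannot be told apart from those of CG34164.

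For several paralogs, head RNA came almost wholly from 1 copy of the pair. RpS5a had 168 RPKM and RpS5b 0.13 RPKM. RpS19a had 56.5 RPKM and RpS19b 0.10 RPKM. RpL10Ab had 235 RPKM against 0.02 RPKM for RpL10Aa, and RpS28b had 135 RPKM against 0.06 RPKM for RpS28a. RpL22 stood at 385 RPKM while RpL22-like, a paralog known from the male germline, gave 5 reads in all 24 libraries together. Other pairs were both expressed. RpS14a and RpS14b, neighbouring copies on X, had 206 and 154 RPKM; they encode the same protein, so the division of reads between them is uncertain. RpL34a and RpL34b had 67.9 and 57.6 RPKM, and RpS15Aa and RpS15Ab had 116 and 52.2 RPKM.

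The 7 members that did not pass the filter were RpL10Aa, RpL22-like, RpL37-2, RpS5b, RpS19b, RpS28a and RpS28-like. Of these, 6 had their highest value in 3X mock 6, the head with testis transcripts, and RpL37-2 was highest in 1X mock 2 at 0.741 RPKM. RpL10Aa gave 16 reads in 3X mock 6 and was listed at 0 in the other 23 flies. RpS19b gave 11 reads there and RpS28-like 5, their highest numbers in any fly. RpS5b gave 15 reads in 3X mock 6 out of 99 in all flies. None of these 7 entered a test, and the part of testis tissue in their levels was not tested.

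After 3X training the ribosomal protein genes as a set sat slightly above the mock level. Of the 80 tested members, 79 had a positive change, where 52.9% of all tested genes did. Under other scalings of the libraries the number was 76 to 78. The members moved together from fly to fly, as given below, so their signs are not 80 separate observations. The median change was 0.14 on the log2 scale, a ratio of 1.10, against 0.009 for all tested genes. As TPM the median was 0.11, against -0.017, and under quantile normalization it was 0.092, against -0.0063. In the deposited scaling the middle of the set was narrow, with quartiles of 0.11 and 0.16. The median was 0.14 for the large subunit (45 of 45 positive) and 0.13 for the small subunit (31 of 32 positive). RpS15Ab was the exception: its change was -0.0003, with 47.7 to 55.7 RPKM in 3X trained flies and 50.5 to 52.6 RPKM in 3X mock flies. Without 3X mock 6 the median was 0.13 and 80 of 80 were positive. Without the fly 3X trained 3 it was 0.090.

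Few of these differences passed the test singly. The genes RpL11, RpS3 and RpL7-like were called higher after 3X training, 3 of 80, where 1.49% of all tested genes were called higher, and no member was called lower. At an unadjusted p under 0.05, 47 members were higher and 0 lower, and 12.5% of all tested genes were higher at that level. In either direction this was 14 members as TPM, 19 under quantile normalization and 39 with a median-ratio scaling. Without 3X trained 3 it was 21. The number called depended on single flies: it was 0 without 3X trained 3, 3X mock 3 or 3X mock 4, it was 1 without 3X trained 5 or without 3X mock 1, 2 or 6, and it was 5 without 3X trained 6. It was also 0 under quantile normalization, with values rescaled to TPM, or with the 3X groups fitted alone. Over all tested genes the calls after 3X training were 157 higher and 82 lower, 135 and 116 with a median-ratio scaling, 119 and 149 under quantile normalization and 37 and 47 as TPM.

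RpL11 had the smallest p of the members. RpL11 binds the 5S RNA particle of the large subunit and in mammals also binds the p53 ligase MDM2. Its gene lies on 2R from 19442342 to 19443825 on the forward strand (dm6). It had 137, 132, 162, 142, 137 and 134 RPKM in 3X trained flies, against 125, 115, 110, 114, 124 and 122 RPKM in 3X mock flies. The groups did not overlap, and 3X trained 3 was the highest fly. The change was 0.25 ± 0.053 (SE, adjusted p = 0.0213), and leaving out 1 fly at a time gave 0.21 to 0.26 with 9 of 12 fits still under the threshold. In 1X flies the same gene had a mean of 134 ± 9.6 RPKM in trained flies and 129 ± 5.6 RPKM in the mock group (SD, 6 flies per group), a change of 0.057 with an adjusted p of 0.601 in limma.

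RpS3, at the entry of the messenger RNA channel and also known for an endonuclease activity in DNA repair, lies on 3R from 23358812 to 23360207 on the forward strand. Its levels were 134, 123, 151, 127, 139 and 134 RPKM in 3X trained flies and 126, 121, 113, 115, 111 and 115 RPKM in 3X mock flies. The groups overlapped in 1 trained fly, and 5 of 6 trained flies exceeded the mock maximum. The change was 0.20 ± 0.052 (SE, adjusted p = 0.0437) and stayed under the threshold in 4 of 12 fits that left out 1 fly. After 1X training RpS3 averaged 130 ± 6.7 RPKM in trained flies and 130 ± 8.9 RPKM in the mock group (SD, 6 flies per group).

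RpL7-like, on 2L from 12056326 to 12058251, had 13.6, 13.9, 15.6, 15.1, 14.6 and 13.8 RPKM in 3X trained flies, against 12.1, 11.4, 12.7, 13.5, 12.9 and 12.3 RPKM in 3X mock flies. The lowest trained fly stood just above the highest mock fly, at 13.57 and 13.53 RPKM. The change was 0.19 ± 0.051 (SE, adjusted p = 0.0458), under the threshold in 3 of 12 fits that left out 1 fly. The reads are shared with CG34164, as given above.

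In 5 of the 80 members every 3X trained fly lay above every 3X mock fly, where 1.52% of all tested genes showed this. Apart from RpL11 and RpL7-like these were RpL6, RpL10Ab and RpS13, of which RpS13 is named here for this result alone. RpL6, a large-subunit protein, had 243.97 to 287 RPKM in 3X trained flies and 220 to 243.85 RPKM in 3X mock flies, a change of 0.15 ± 0.050 (SE) with an adjusted p of 0.0906. RpS13, of the small subunit, averaged 145 ± 12.6 RPKM in 3X trained flies and 128 ± 4.0 RPKM in the 3X mock group (SD, 6 flies per group), with an adjusted p of 0.0578 in limma.

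**Figure D2:**
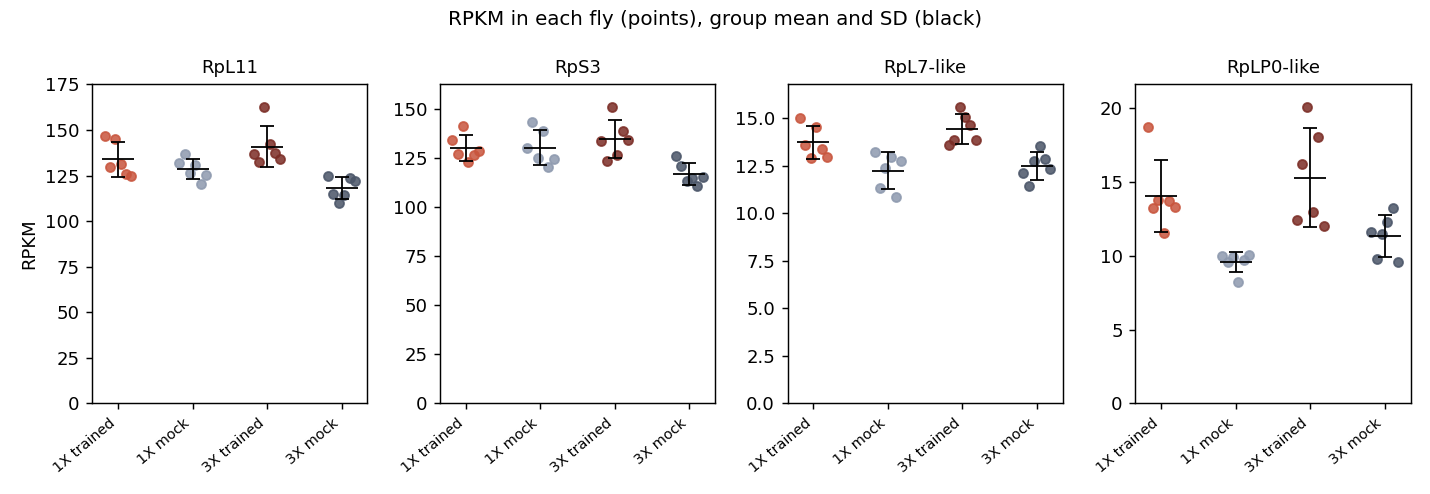
RPKM of RpL11, RpS3, RpL7-like and RpLP0-like in each of the 24 flies, by group; points are flies and black marks the group mean and SD, with the axis from 0. RpL11 and RpL7-like separate 3X trained from 3X mock flies and RpLP0-like separates 1X trained from 1X mock flies, while RpS3 overlaps in 1 trained fly.

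In the deposited scaling the set stayed near the mock level after 1X training. The median change of the 80 members was 0.015, against 0.002 for all tested genes, and 45 of 80 were positive, where 50.8% of all tested genes were. This count was 72 as TPM, 68 under quantile normalization and 43 with a median-ratio scaling. As TPM the median of the members was 0.077, against 0.058 for all tested genes. Under quantile normalization it was 0.073, against -0.0047, and with a median-ratio scaling it was 0.013. How far the set differs between 1X and 3X training therefore depends on the scaling. Leaving out 1 fly at a time in the deposited scaling gave medians between -0.009, without 1X trained 1, and 0.037, without 1X mock 2. Only RpLP0-like was called higher, 1 of 80, where 2.75% of all tested genes were called higher. At an unadjusted p under 0.05 there were 6 members higher, where 10.9% of all tested genes were, and 4 lower, where 9.94% were. RpS2, a small-subunit protein, had the most negative change at -0.15 ± 0.057 (SE, adjusted p = 0.119). It had 330 to 358 RPKM in 1X trained flies and 338 to 423 RPKM in 1X mock flies.

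RpLP0-like lies on 2R from 10098518 to 10099590 on the reverse strand and shares 39 exonic bases with Jra. It had 18.7, 13.3, 13.8, 11.6, 13.7 and 13.3 RPKM in 1X trained flies and 10.02, 9.60, 9.95, 8.24, 9.74 and 10.02 RPKM in 1X mock flies. The groups did not overlap, which was so for 1 of 80 members and for 1.93% of all tested genes. The change was 0.50 ± 0.11 (SE, adjusted p = 0.0133), and it was called in 12 of 12 fits that left out 1 fly and under each of the scalings run. In 3X flies the change was 0.38 ± 0.11 with an adjusted p of 0.0642 in limma, and 3 of 6 trained flies exceeded the mock maximum. The effects of the 2 schedules differed by -0.11, with a 95% interval of -0.44 to 0.22.

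The other -like genes leaned the same way without being called after 1X training. RpL24-like averaged 87.9 ± 11.6 RPKM in 1X trained flies and 76.0 ± 6.2 RPKM in the 1X mock group (SD, 6 flies per group), with a change of 0.20 and an adjusted p of 0.0841 in limma. Without 1X trained 1, the highest of these flies, its change was 0.13. RpL7-like had a change of 0.15 with an adjusted p of 0.0784. For comparison RpL24, RpL7 and RpLP0, which are parts of the ribosome itself, had 1X changes of 0.008, -0.0002 and -0.024.

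The difference between the schedules was tested in the same model, as the 3X effect minus the 1X effect. Of the 80 members, 71 were positive in it, where 51.7% of all tested genes were, and the median was 0.11 against 0.005 for all tested genes. As TPM or under quantile normalization the median was 0.023 and 51 or 47 members were positive. Of the 814 other genes of at least 100 RPKM, 577 were positive, with a median of 0.086. At an unadjusted p under 0.05, 128 of them were higher. Without 3X trained 3 the median of the members was 0.068. Without 3X mock 6 it was 0.11, with 70 members positive. No member was called in limma, where 0.0948% of all tested genes were called higher. At an unadjusted p under 0.05, 19 members were higher, where 6.52% of all tested genes were. In either direction this was 3 members as TPM and 2 under quantile normalization. Without 1X trained 1 a single member, RpL6, was called. RpL6 had the smallest p: a 1X change of -0.12 and a 3X change of 0.15 gave a difference of 0.27 ± 0.071 (SE, adjusted p = 0.0974). For RpS2 the changes were -0.15 and 0.14, and the difference of 0.30 ± 0.081 (SE) had an adjusted p of 0.119. For RpL4 they were -0.13 and 0.11 and the adjusted p was 0.154. The 2 effects use separate flies.

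Between the mock groups the set leaned the other way. Comparing 3X mock with 1X mock sets longer against shorter handling without a female. Time of day and batch of these flies were not known here and cannot be told apart from handling. The 3X mock flies are also the baseline of the 3X comparison, so the values are set side by side and not counted as separate support. The median change of 3X mock relative to 1X mock was -0.081, against 0.006 for all tested genes, and 73 of 80 members were negative, where 47.6% of all tested genes were. As TPM and under quantile normalization 19 and 27 members were positive, against 7 in the deposited scaling, and the medians were -0.034 and -0.022. No member was called, where 2.34% of all tested genes were called lower. At an unadjusted p under 0.05, 15 members were lower, where 8.68% of all tested genes were. In either direction this was 0 members as TPM and 1 under quantile normalization. Of the 814 other genes of at least 100 RPKM, 526 were negative, 164 were lower at that level and 47 were called lower. Without 3X mock 1 a single member, RpL4, was called. Without 3X mock 6 the median was -0.080.

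RpL4, a large-subunit protein that lines the exit tunnel, had the smallest p in this comparison. It had 204, 196, 180, 186, 176 and 178 RPKM in 3X mock flies and 209, 215, 216, 224, 195 and 197 RPKM in 1X mock flies. The groups overlapped, with 4 of 6 3X mock flies below the lowest 1X mock fly. The change was -0.17 ± 0.051 (SE, adjusted p = 0.0692). RpS26, a small-subunit protein next to the messenger RNA exit, was the 1 member whose groups did not overlap, which 2.47% of all tested genes also showed. It had 82.6 to 90.678 RPKM in 3X mock flies and 90.705 to 107 RPKM in 1X mock flies, with an adjusted p of 0.0964 in limma. RpS3 had a mock change of -0.15 (adjusted p = 0.1002) beside its 3X change of 0.20, and RpL11 had -0.12 beside 0.25.

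**Figure D3:**
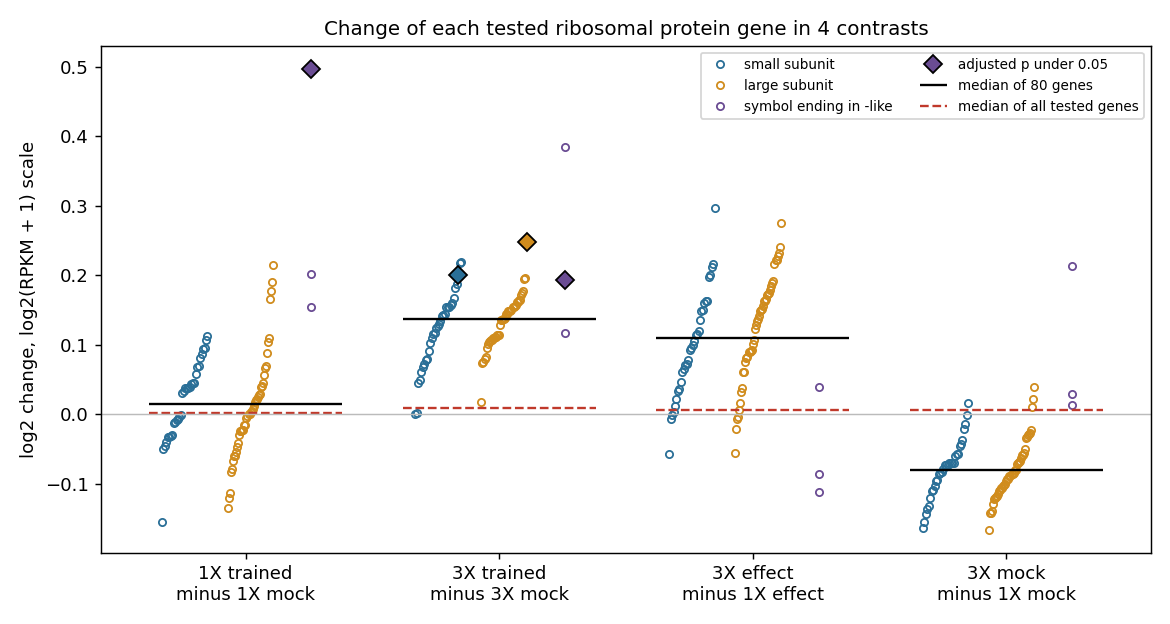
Change of each of the 80 tested genes on the log2(RPKM + 1) scale in 4 contrasts, by subunit; filled diamonds have an adjusted p under 0.05, black lines are medians of the 80 genes and dashed red lines medians of all tested genes. After 3X training nearly all genes lie above 0 (median 0.14), after 1X training they straddle it (median 0.015), and between the mock groups they lie mostly below it (median -0.081).

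Taken per fly, the mean of log2(RPKM + 1) over the 80 members was 7.43 ± 0.11 in 3X trained flies and 7.30 ± 0.048 in 3X mock flies, as mean and SD of 6 flies. In 1X flies it was 7.40 ± 0.078 when trained and 7.37 ± 0.086 in the mock group. The ranges overlapped in both schedules, in 3X from 7.31 to 7.64 in 3X trained and from 7.23 to 7.37 in 3X mock flies. The highest fly of all was 3X trained 3, followed by 1X trained 1 and 1X mock 2, and the lowest was 3X mock 3. Of the 80 genes, 79 were above their own 24-fly mean in 3X trained 3, and 1 was in 3X mock 3. Members took 2.83 to 3.81% of the summed RPKM of a fly, with group means of 3.19 ± 0.25% in 3X trained and 2.97 ± 0.13% in 3X mock heads, and 3.20 ± 0.32% in 1X trained and 3.04 ± 0.19% in 1X mock heads (SD, 6 flies per group). The share was highest in 1X trained 1 at 3.81%, and without that fly the 1X groups differed by 0.046 percentage points instead of 0.17. Without 3X trained 3 the 3X groups differed by 0.12 percentage points instead of 0.22.

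**Figure D4:**
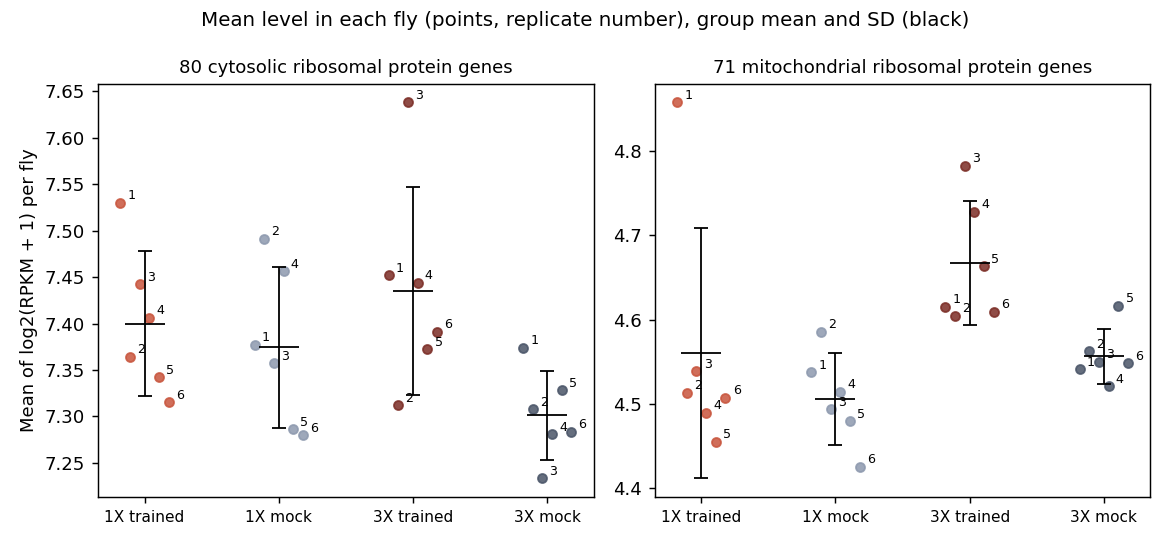
Mean of log2(RPKM + 1) per fly over the 80 cytosolic (left) and 71 mitochondrial (right) ribosomal protein genes, by group; points are flies with their replicate number, black marks the group mean and SD, and neither axis starts at 0. The cytosolic means of 3X trained flies (7.31 to 7.64) overlap those of 3X mock flies (7.23 to 7.37), with 3X trained 3 the highest, while in the right panel 1X trained 1 stands above its group.

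Markers of the fat body were read beside these levels, without a test. The summed RPKM of 4 fat body markers (Lsp2, fit, to and apolpp) was 1886 to 5452 in 3X trained flies and 3493 to 8134 in 3X mock flies, and it was 624 to 8458 in 1X trained flies and 5310 to 10169 in 1X mock flies. The ranges overlapped in both schedules, and the 624 was the value of 1X trained 1 alone. The mean sum was lower in trained flies in both schedules. It was 3216 ± 1298 in 3X trained and 5754 ± 1606 in 3X mock flies (SD, 6 flies per group). In 1X flies it was 4591 ± 2520 when trained and 7377 ± 1647 in the mock group. All 4 markers were above 0 in every fly. The storage protein Lsp2 had the highest median of the 4, at 4103 RPKM, beside 629 RPKM for fit, 340 RPKM for apolpp and 71.7 RPKM for to. Over all flies Lsp2 ranged from 46.8 to 9020 RPKM, fit from 165 to 1151 RPKM and to from 18.5 to 306 RPKM. For apolpp the range was the narrowest of the 4, at 272 to 440 RPKM. The spread of the sum therefore came mainly from Lsp2, and the markers did not all vary alike. In bulk heads, fewer fat body cells and less RNA per cell cannot be told apart. Their part in the ribosomal protein levels was not tested. The neuronal markers summed to 275 to 311 RPKM in 3X trained flies and 296 to 316 RPKM in 3X mock flies. In 1X flies they summed to 279 to 325 RPKM when trained and 305 to 336 RPKM in the mock group.

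From fly to fly the ribosomal protein genes moved together. Each gene's deviations from its group means were correlated over the 24 flies as a description. All these points share library, scaling and depth. The median Pearson r over pairs of members was 0.74, with 97.2% of pairs above 0. Over pairs of the 71 mitochondrial ribosomal protein genes it was 0.51, and over pairs of 814 other genes of at least 100 RPKM it was 0.098. RpL9 of the large subunit followed the mean of the other members most closely (r = 0.97), a gene named for this value. The 3 members with r under 0.5 were RpS10a (-0.23), RpLP0-like (0.26) and RpL7-like (0.31). RpS10a is also the least abundant tested member. The spread within groups was small. The median coefficient of variation was 6.42% for members, against 9.13% for all tested genes and 9.57% for the other abundant genes. It was lowest for RpS14a at 4.44% and highest for RpS10a at 21.1%, and RpLP0-like had 14.7%.

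**Figure D5:**
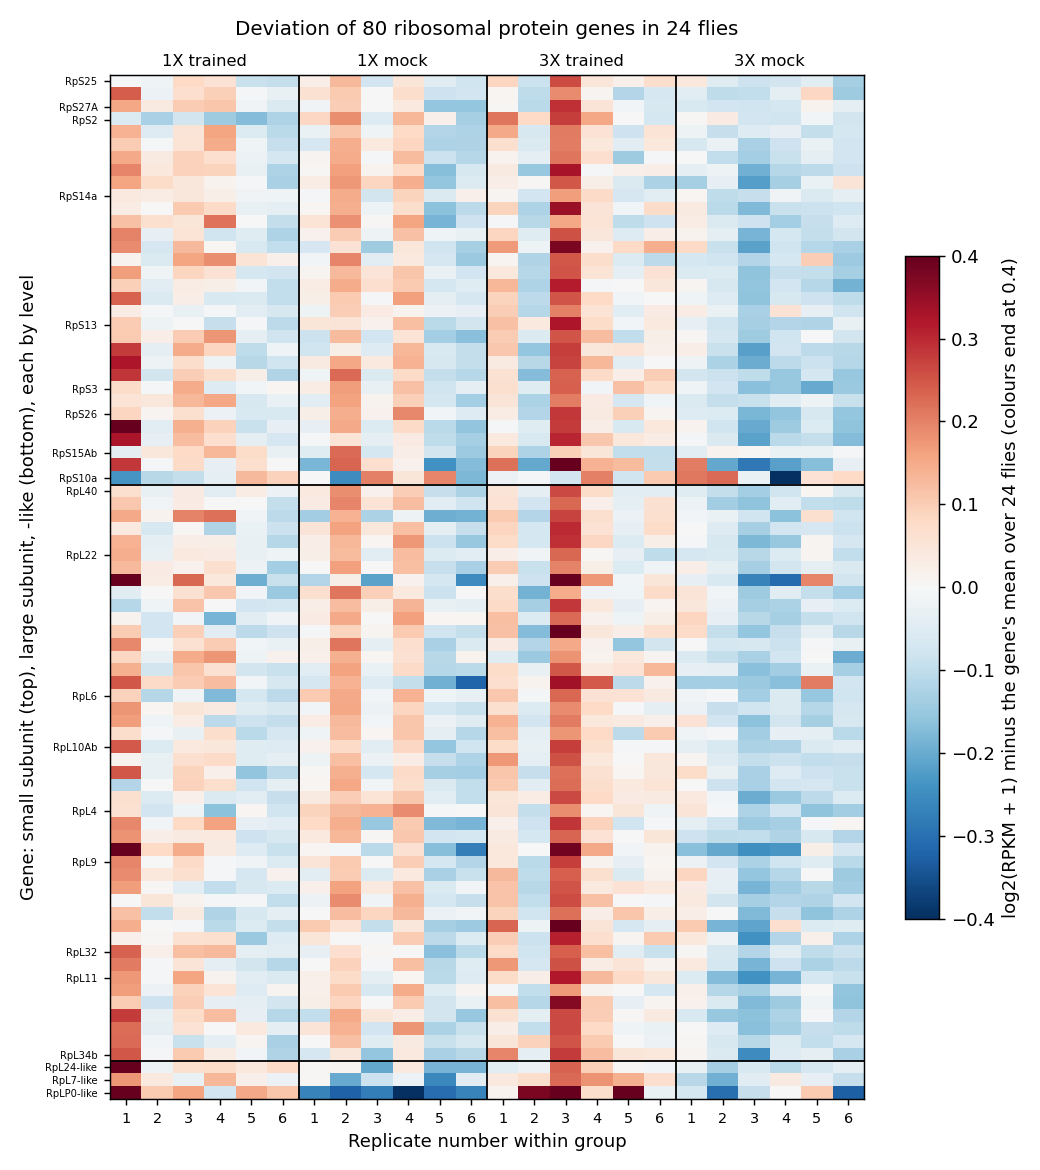
Deviation of log2(RPKM + 1) of each of the 80 genes (down the page) from its own mean over 24 flies (across, by group and replicate number), with some genes labelled, red above and blue below the mean, with colours ending at 0.4. Whole columns share a colour: 3X trained 3 is red in 79 of 80 genes and 3X mock 3 in 1 of 80, and RpLP0-like at the bottom is blue in 1X mock flies and red in most trained flies.

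The members lay on all major chromosome arms, with 23 on 3R, 19 on 2R, 18 on 2L, 13 each on 3L and X and 1 on chromosome 4. The median 3X change was 0.11 to 0.15 on the 5 large arms. RpL32 had 3X values of 132 to 166 RPKM in trained flies and 129 to 141 RPKM in mock flies, a change of 0.11 ± 0.058 (SE, adjusted p = 0.301), and its 1X change was 0.11 with an adjusted p of 0.290 in limma.

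Mitochondrial ribosomal protein genes, whose products serve the separate ribosomes inside mitochondria, had a median 3X change of 0.11 and a median 1X change of 0.054 over 71 genes. The 1X value rested on 1X trained 1: without that fly the median was -0.011, with 0 called higher and 4 lower, and as TPM it was 0.12. After 3X training 2 of the 71 were called higher, where 1.49% of all tested genes were, and the number was 1 with a median-ratio scaling and 0 as TPM or under quantile normalization. Leaving out 1 fly at a time gave 0 to 6. After 1X training 1 was called higher, where 2.75% of all tested genes were. Between the mock groups their median was 0.051, where that of the cytosolic genes was -0.081. The 814 other abundant genes had medians of 0.027 after 3X training, -0.043 after 1X training and -0.053 between the mock groups. Their median in the difference of the effects was 0.086.

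Other genes of the translation machinery were taken from 5 lists with 48 names, of which 41 were matched to the table. Tor and S6k, listed as regulators, were among the names not matched. Of the 41 genes, 6 were called higher and 1 lower after 1X training and 0 after 3X training. Over all 10547 tested genes, 290 were called higher and 231 lower after 1X training, and 157 and 82 after 3X training. At an unadjusted p under 0.05, 20 of the 41 were higher after 3X training, where 12.5% of all tested genes were, and 1 was lower. After 1X training 17 were higher and 5 lower, beside 10.9% and 9.94% of all tested genes. Among the small-subunit proteins that carry other names, sta had a 3X change of 0.12 and a 1X change of -0.16, and Rack1 had 0.19 and -0.086, with adjusted p from 0.0510 to 0.513 in limma. With a median-ratio scaling sta was called lower after 1X training. Elongation factor eEF1gamma was called lower after 1X training at -0.21 ± 0.053 (SE, adjusted p = 0.0261), a call lost as TPM and under quantile normalization and kept in 8 of 12 fits that left out 1 fly. Its 3X change was 0.12, and the difference of the effects had an adjusted p of 0.0771. Of the 12 initiation and mRNA-binding genes none was called in the deposited scaling, and eIF6, which keeps the large subunit from joining too early, came closest with 0.47 after 3X and 0.42 after 1X training (adjusted p = 0.0519 and 0.0582 in limma). Under quantile normalization eIF6 was called after 3X training.

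Genes for ribosome biogenesis, which help to make and assemble ribosomes, had the largest medians of the translation lists after both schedules. The list was chosen with earlier results of these data known. All 15 were positive after 1X training, where 50.8% of all tested genes were, also under each of the other scalings. Their median was 0.40, and 5 were called higher, where 2.75% of all tested genes were: nclb, Nopp140, Ns3, Surf6 and CG1542. After 3X training 15 of 15 were positive with a median of 0.29, none was called and 10 had an unadjusted p under 0.05. Of all tested genes, 52.9% were positive, 1.49% were called higher and 12.5% were higher at that level. Between the mock groups, which share the 3X mock flies with that comparison, 15 of 15 were also positive in 3X mock relative to 1X mock, with a median of 0.19, none called and 5 at an unadjusted p under 0.05. Of the 10547 tested genes, 5525 were positive there and 871 were higher at that level. The numbers called depended on single flies: leaving out 1 fly at a time gave 1 to 6 after 1X training, with 1 without any of 1X trained 1, 2, 5 or 6 or 1X mock 2, 4 or 5. It gave 0 to 9 after 3X training, with 5 without 3X trained 1 and 9 without 3X trained 6. The largest 1X change was that of nclb, a chromatin factor needed for ribosomal RNA transcription, at 0.73 ± 0.16 (SE, adjusted p = 0.0101), called in 12 of 12 fits that left out 1 fly. Its 3X change was 0.56 with an adjusted p of 0.0589, and the difference of the effects had an adjusted p of 0.828. Under quantile normalization 3 of the 15 were called after 1X training. Ribosome assembly genes and the -like members RpLP0-like, RpL7-like and RpL24-like had 1X medians of 0.40 and 0.20, where the large and the small subunit had 0.003 and 0.036. As TPM the subunits had 0.064 and 0.097. The difference between these lists was not tested. Among 7 regulators Max, the partner of Myc, was called higher after 1X training at 0.20 (adjusted p = 0.0175), and the translation inhibitor Thor had changes of -0.88 after 1X and -0.86 after 3X training with adjusted p of 0.0856 and 0.103 in limma.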

How the data were processed

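Poly(A) RNA of 24 single male fly heads (6 per group, from the labels) was made into non-stranded SMART-Seq v4 libraries. The authors deposited RPKM values for 17559 genes. The submitters' processing notes name bcl2fastq 2.18, TopHat2 2.0.13, dm6 and edgeR 3.18.1, and the methods name Ensembl 84 gene models, while another section of the methods names an older aligner, assembly and caller. No column was pooled and none was left unused.

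Members were found by symbol (17252 of the gene IDs had one). The members and the gene lists were chosen with earlier results of these data known. Genes named were members called with the smallest p (up to 6 per direction, or the 3 smallest p where none was called), the 5 highest and 5 lowest by level, paralogs, RpL32, the stalk proteins and the ubiquitin fusions; RpL9, RpL37-2, RpS10a, RpS13 and RpS21 were added after their values were seen. The values of 1 gene of this rule are not reported here. Groups were separate flies, taken as biological replicates.

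Genes reaching 1 RPKM in 6 or more flies were fitted as log2(RPKM + 1) with limma 3.58.1 in R 4.3.3 (lmFit, contrasts.fit, eBayes with trend), with 1 mean per group over all 24 flies, two-sided, Benjamini-Hochberg over 10547 genes. Folds on this scale understate changes of low genes. edgeR needs counts and was not run here. The fit was tested on simulated independent values with a log2 change of 1 planted in 200 genes. It recovered 95% of them, and 6.4% of the genes called were false. This does not show how well the fit finds smaller changes in genes that move together. Read numbers were recovered from RPKM with Ensembl 115 exonic lengths, whole within 0.02 reads for 97.5% of 16693 genes and for 85 of the 87 members; 2 took a fitted length. Precision of a value is set mainly by the spread between flies. Libraries do not mark strand, so overlapping genes share reads. Alternatives were a pseudocount of 0.1, no filter, median-ratio, TPM and quantile scaling, only the groups compared, a replicate block, and leaving out each fly. Leaving out each fly for single called members, the -like members and the other gene lists was added after seeing the data. Scripts used Python 3.11.15.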

Additional observations from a re-analysis of the deposited data

Results flagged for a closer look

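In each group of 6 flies the highest and the lowest fly were compared with the nearest of the others. Of 160 such groups, over the 38 named genes and the totals per fly, 17 held a fly far from the rest. Normally distributed values would give about 8.0. The genes move together and some had few reads, so the groups are not separate observations and nothing is read from the excess. Many came from the 2 flies with the highest ribosomal protein levels. In 3X trained 3 these were RpL11 at 162 RPKM (others at most 142), RpL10Ab at 285, RpL22 at 452, RpL40 at 586 and RpS27A at 495 RPKM. In 1X trained 1 they were RpL10Ab at 278, RpL22 at 426, RpL24-like at 111 (others at most 84.9), RpL34a at 79.3 and RpLP0-like at 18.7 RPKM. RpLP0-like was also low in 1X mock 4 at 8.24 RPKM.

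The rest were genes at the floor of detection. In 3X mock 6, the head with testis transcripts, they were RpL10Aa at 0.579, RpL22-like at 0.0460, RpS19b at 0.468 and RpS28-like at 0.388 RPKM. In 1X trained 3 they were RpL22-like at 0.0247 and RpS5b at 0.224 RPKM. No cause was tested.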

How the results depend on the processing

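The count called after 3X training (3) was 1 without a filter, 0 with TPM scaling, 0 under quantile normalization and 0 with only the groups compared. Leaving out 1 fly at a time gave 0 to 5 after 3X training, 0 to 1 for the difference of the effects and 0 to 1 between the mock groups; the cause was not tested. The single call after 1X training was kept under each alternative run. The median of the difference was 0.023 with TPM scaling and 0.023 under quantile normalization, against 0.11; the cause was not tested. Of the values of named genes that were tallied, 903 kept direction and side of the threshold and 33 kept direction but missed the threshold. The tally does not hold calls gained when a fly was left out. RpLP0-like was called after 3X training without 3X trained 1 or without 3X trained 6. RpL6 was called in the difference without 1X trained 1, and RpL4 between the mock groups without 3X mock 1. The 3X change of RpS15Ab became positive without 3X mock 6.

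Replicate numbers are shared between groups, but same-numbered flies did not deviate together: over 36 such pairs r was -0.24 to 0.15, with 4 over 0.1. With the replicate block, 1 member was called after 1X training and 2 after 3X training (RpL11 and RpL7-like; RpS3 had an adjusted p of 0.0603), 0 in the difference and 0 between mock groups.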
